A study of Mus musculus with 4 samples.

Results

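The replication-dependent histone genes were described here as the 67 protein-coding genes whose GENCODE M21 symbol starts with Hist1h, Hist2h, Hist3h or Hist4h, out of 54532 genes in the count tables. The rule used symbol and biotype and no expression value. These genes were nevertheless chosen for description with earlier results of these data known. They comprised 6 genes of the linker histone H1 and 18 of H2A, 18 of H2B, 12 of H3 and 13 of H4. The Hist1 cluster on chromosome 13 held 54 of them in 2 blocks more than 1 Mb apart, with 23 and 31 genes. The Hist2 cluster on chromosome 3 held 10, Hist3 on chromosome 11 held 2, and Hist4 on chromosome 6 held 1, Hist4h4. A further 3 genes with these prefixes are annotated as pseudogenes and were left out.

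Bulk RNA was sequenced from C3H10T1/2, a mouse mesenchymal stem cell line, in lines engineered to study how Mmachc is silenced. The WT library came from unedited cells, and the PRDX1MT library from cells with a CRISPR edit at the splice acceptor of Prdx1 intron 5, whose genotype is also labelled as a PRDX1 knockout. The DKO group held clone 1 and clone 5, both labelled as knockouts of DNMT3A and DNMT3B, the enzymes that set DNA methylation de novo. Whether the Prdx1 edit is also present in the DKO lines is not given by the labels, no group is stated to have a separate culture of the same cells, and each edited genotype was seen in at most 2 clones, so a difference between lines cannot be told apart from a difference between clones.

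Most histone genes of this class are transcribed when DNA is replicated, so that new nucleosomes can be built behind the replication fork. H2A, H2B, H3 and H4 form the nucleosome core, and H1 binds the linker DNA between cores. Their mRNAs have no introns and, in cycling cells, mostly end in a stem-loop bound by SLBP in place of a poly(A) tail. Some members can also be polyadenylated, which keeps their mRNA in cells outside S phase. Total RNA was used after removal of ribosomal RNA, so mRNAs with either end could be read.

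The histone stem-loop, a stem and loop of 16 bases that was allowed to vary at 3 of them, was found on the sense strand in the annotated transcripts of 42 of the 67 members. It is shown for the members that the results turn on, with the paired stem and its loop in capitals, from GENCODE M21 transcripts read 5′ to 3′ along the gene. The annotation of the other members often stops at the coding end, so no match says only that these letters are not in the annotated transcript.
Hist1h1c: aaaaGGCTCTTTTCAGAGCCaccac
Hist1h1e: caaaGGCTCTTTTCAGAGCCaccca
Hist1h2bk: caaaGGCTCTTTTAAGAGCCactaa
Hist2h3c2: caaaGGCTCTTTTCAGAGCCaccac
Hist1h4n: taaaGGCCCTTTTCAGGGCCatcca
Hist4h4: caaaGGCCCTTTTCAGGGCCcacaa
Hist1h4i: taaaGGCCCTTTTTAGGGCCaccac

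Promoter sequences came from RefSeq (GRCm38.p6), which matched 62 of the 67 members. Hist1h2bc, Hist1h3a, Hist1h3f, Hist2h2be and Hist2h4 had no entry. The windows searched ran from 250 bases before to 50 bases after the RefSeq start, and each motif was counted on both strands. CCAAT was found in 85.5% of the members' windows and in 37.4% of the 32851 RefSeq windows, and TATAAA in 56.5% against 13.6%. The 150 bases before the start are shown for 5 H1 genes because Hist1h1a and Hist1h1c differed from Hist1h1b, Hist1h1d and Hist1h1e in how their levels varied between libraries. The testis gene Hist1h1t, at a low level in all libraries, is counted below but not shown. Capitals mark AAACACA, a motif of H1 promoters, CCAAT and TATAAA on either strand.
Hist1h1a, chr13:23763518-23763667, plus strand: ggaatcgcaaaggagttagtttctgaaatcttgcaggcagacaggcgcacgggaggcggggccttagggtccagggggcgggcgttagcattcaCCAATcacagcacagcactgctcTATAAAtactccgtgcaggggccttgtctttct
Hist1h1b, chr13:21780626-21780775, minus strand: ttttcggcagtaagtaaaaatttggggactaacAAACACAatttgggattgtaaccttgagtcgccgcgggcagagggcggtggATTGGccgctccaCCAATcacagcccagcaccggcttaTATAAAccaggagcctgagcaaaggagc
Hist1h1c, chr13:23738657-23738806, plus strand: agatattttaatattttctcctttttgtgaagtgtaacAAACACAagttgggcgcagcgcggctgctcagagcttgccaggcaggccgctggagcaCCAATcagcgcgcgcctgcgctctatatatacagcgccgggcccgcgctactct
Hist1h1d, chr13:23554882-23555031, plus strand: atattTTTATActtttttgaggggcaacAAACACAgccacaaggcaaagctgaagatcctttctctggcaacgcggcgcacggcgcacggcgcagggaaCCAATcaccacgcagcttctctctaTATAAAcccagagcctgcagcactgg
Hist1h1e, chr13:23622559-23622708, minus strand: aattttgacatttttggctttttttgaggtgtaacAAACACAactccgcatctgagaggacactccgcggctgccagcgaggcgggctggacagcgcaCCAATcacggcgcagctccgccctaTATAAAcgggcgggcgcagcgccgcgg
The AAACACA motif was found in 5 of 6 H1 windows (83.3%), against 7.18% of all windows. Hist1h1a was the H1 gene without it, and its CCAAT lay 56 to 52 bases before the start, close to that of Hist1h1c at 54 to 50. The H1 windows held a median of 13.5 CpG dinucleotides, against 11 over all members and 7 over all RefSeq windows. Hist1h1a had 12 and Hist1h1c 19.

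For H4 the motif GGTCCG was in 11 of 12 windows (91.7%), against 8.25% of all windows. The 3 H4 genes for which both DKO clones lay on the same side of WT are shown with that motif and any TATAAA in capitals.
Hist4h4, chr6:136804432-136804581, minus strand: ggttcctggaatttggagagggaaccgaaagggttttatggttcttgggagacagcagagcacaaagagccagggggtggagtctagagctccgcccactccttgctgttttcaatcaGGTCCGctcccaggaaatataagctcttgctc
Hist1h4n, chr13:21832198-21832347, minus strand: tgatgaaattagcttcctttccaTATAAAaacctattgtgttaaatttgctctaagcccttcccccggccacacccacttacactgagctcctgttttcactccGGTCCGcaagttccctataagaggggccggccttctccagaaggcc
Hist1h4i, chr13:22041363-22041512, minus strand: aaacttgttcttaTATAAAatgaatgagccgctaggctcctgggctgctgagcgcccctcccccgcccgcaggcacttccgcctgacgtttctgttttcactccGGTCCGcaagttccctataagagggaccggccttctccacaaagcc
Of the H2A and H2B windows, 38.9% and 43.8% held the octamer ATTTGCAT, against 1.74% of all windows and 0 of the H1, H3 and H4 windows. The stretch before Hist1h2bk, which lies between it and its H2A partner Hist1h2ah on the other strand, is shown with ATTTGCAT and CCAAT in capitals. It is followed by Hist1h3c, an abundant H3 gene, and Hist2h3c2, an H3 gene of low level.
Hist1h2bk, chr13:22035671-22035820, plus strand: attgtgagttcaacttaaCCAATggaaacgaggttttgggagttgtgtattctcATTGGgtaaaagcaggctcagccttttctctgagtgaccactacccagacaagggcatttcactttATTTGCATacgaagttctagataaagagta
Hist1h3c, chr13:23745522-23745671, minus strand: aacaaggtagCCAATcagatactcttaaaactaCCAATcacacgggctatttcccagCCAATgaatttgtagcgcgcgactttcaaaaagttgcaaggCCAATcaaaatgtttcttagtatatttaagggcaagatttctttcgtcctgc
Hist2h3c2, chr3:96239128-96239277, minus strand: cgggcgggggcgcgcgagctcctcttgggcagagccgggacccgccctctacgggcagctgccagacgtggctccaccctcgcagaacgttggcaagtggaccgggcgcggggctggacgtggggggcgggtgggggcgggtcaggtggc
The Hist1h3c stretch held 4 CCAAT matches, and no match to the marked motifs was in that of Hist2h3c2, which had 17 CpG in 150 bases, against 5 for Hist1h3c. The longer window searched for Hist2h3c2 did hold CCAAT, as did all 10 H3 windows. A match is a description of letters and not a measured binding site.

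The libraries held 27570136 to 37685798 counts. Levels are given as CPM, counts per 1000000 of the library size after scaling by TMM factors, and 3 counts, the limit a count of 0 allows, were worth 0.0729 to 0.121 CPM. The share of counts in members was 0.282% for WT, 0.249% for PRDX1MT, 0.226% for clone 1 and 0.413% for clone 5. The non-coding gene Gm26917 took 5.36% to 22.3% of counts and mitochondrial genes 0.519% to 2.08%. Prdx1 stood at 399 CPM in WT, 31.2 in PRDX1MT, 392.2 in clone 1 and 332 in clone 5. Dnmt3a reads were present in both DKO clones (31.3 and 25.9 CPM, 43.7 in WT), and so were Dnmt3b reads. Over Prdx1, Dnmt3a and Dnmt3b the log2 ratios to WT ran from -0.479 to -0.026 in clone 1 and from -0.752 to -0.267 in clone 5. Reads over the whole gene cannot check a small edit. Of 10 mesenchymal markers all had reads in every library, Col1a1 at 6540 to 19488 CPM, but Thy1 was at 29.0 CPM in WT and 0.757 to 1.38 in the edited lines. Over WT and PRDX1MT together, 9 of the 10 had at least 100 reads. By the size rule given below, 3 of 9 were lower than WT in PRDX1MT and 0 higher (7.57% and 7.25% of all genes). In clone 1, 1 of 9 was lower and 2 higher (7.56% and 8.40%), and in clone 5, 2 and 2 (8.58% and 5.69%). Among markers of blood, endothelium, epithelium and male germ cells, the highest level was 2.04 CPM, for Cd34 in WT, and Epcam, Ddx4, Dazl and Tnp1 were at 0 in all libraries.

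At least 1 read was counted for 61 members in WT and 60 in each edited line, and 53 members had at least 100 reads over the 4 libraries. Of the 6 at 0 in all libraries, Hist2h2aa1, Hist2h2aa2, Hist2h3c1, Hist2h3b and Hist2h2bb have 100% of their exon bases under other annotated genes, where reads can be dropped as ambiguous, so their level was not measurable here. The other, Hist1h2aa, is known from testis, as are Hist1h2ba (1, 0, 1 and 1 reads in WT, PRDX1MT, clone 1 and clone 5) and Hist1h1t (30, 9, 35 and 44 reads). Near-identical members share reads. The share of 50-base windows also found in another gene was 0% for Hist1h1a and Hist1h1b and 8.54% for Hist1h1c, but 93.9% for Hist1h3h and 85.6% for Hist1h4n. All 18 H2A genes overlap another annotated gene on the other strand, so levels of H2A against other types are uncertain.

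Per kilobase of coding sequence, the summed WT level of H4 was 2380 CPM per kb, of H1 1336, of H2B 1296, of H3 869 and of H2A 348. These sums carry the ambiguity of the H2A and Hist2 genes. A few members led each type in WT. Hist1h4d made up 24.6% of the H4 level and Hist1h1c 36.9% of the H1 level. Hist1h2ak made up 29.9% of H2A, Hist1h3e 23.7% of H3 and Hist1h2bg 14.5% of H2B. In PRDX1MT and clone 1 Hist1h2bc took the lead of H2B, with 22.3% and 28.7%. Some of these leads depend on the length used. Per kilobase of exon, Hist1h4k (213 CPM) stood above Hist1h4d (159) in WT, and Hist1h2bl (71.4) above Hist1h2bc (53.5) in PRDX1MT. Hist1h1c (201) stayed above Hist1h1e (143) in WT, and Hist1h2bc (69.4) above Hist1h2bl (68.0) in clone 1.

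The clearest pattern was the contrast between the DKO clones. Summed over all 67 members, the level was 2585 CPM in WT, 2762 in PRDX1MT, 2216 in clone 1 and 4166 in clone 5. The level in clone 5 was 1.88-fold that in clone 1, and WT and PRDX1MT lay between the clones. Of the 53 members with at least 100 reads, 42 were highest in clone 5 and 36 were lowest in clone 1. In bulk RNA, fewer cells in S phase and less histone RNA per cell cannot be told apart.

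Single libraries were compared by a size rule with no test, since 1 library a side gives no replicate error. To pass, a gene needed 100 reads or more over both libraries, a log2 ratio (prior count 2) of 1 or more in either direction, and a 95% counting interval that left out 0. That interval covers counting error only. Between the clones, 42 of 52 members with enough reads were higher in clone 5 and 1 was lower, while 7.63% of all 12317 such genes were higher and 10.7% lower. The members' median log2 ratio was 1.43 and that of all genes -0.02.

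By type, the number higher in clone 5 was 4 of 5 for H1, 9 of 12 for H2A, 9 of 13 for H2B, 9 of 10 for H3 and 11 of 12 for H4. The largest log2 ratio was 2.30 for Hist1h1a, which stood at low levels in both clones, followed by 2.16 for Hist4h4 and 2.15 for Hist1h3h. The abundant Hist1h3c went from 39.8 CPM in clone 1 to 152 in clone 5, and Hist1h4k from 29.8 to 119. Both blocks of the Hist1 cluster showed it, with 16 of 18 members higher in 1 block (median log2 ratio 1.46) and 23 of 28 in the other (1.43).

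**Figure D1:**
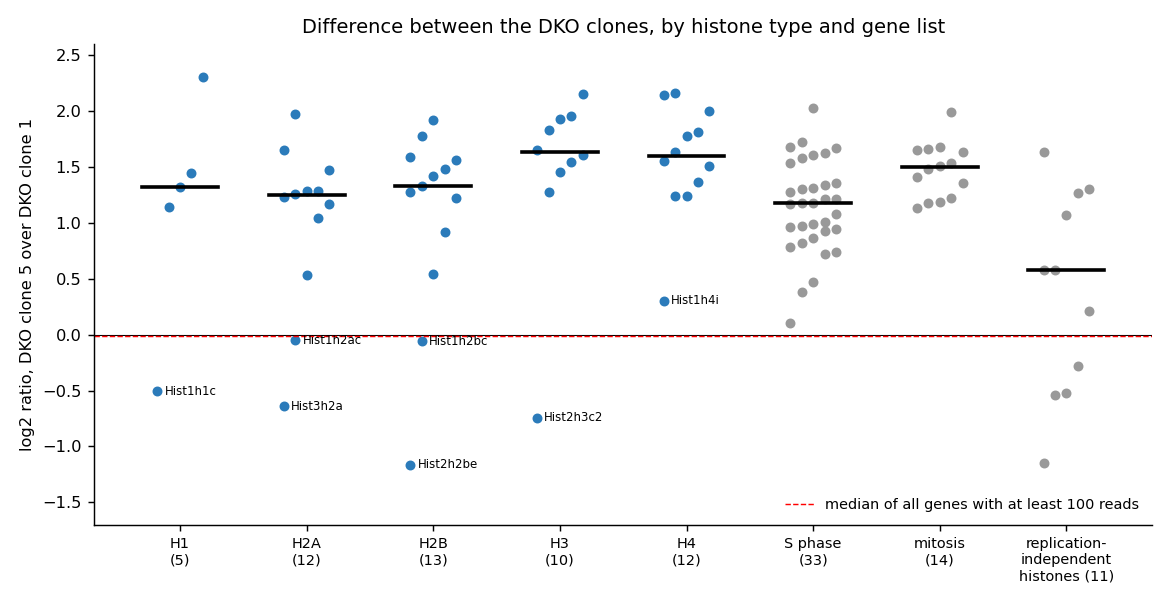
Log2 ratio of clone 5 over clone 1 for each gene with at least 100 reads in the clones together, by histone type (blue) and for 3 other gene lists (grey), with the number of genes in brackets, the median as a black bar and the median of all genes as a red dashed line. The median of each histone type lies above 1, and the 6 named genes below 0 are Hist1h1c, Hist1h2ac, Hist3h2a, Hist1h2bc, Hist2h2be and Hist2h3c2.

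The log2 ratio was below 0 for 6 of the 52 members. They were Hist2h2be at -1.16, Hist2h3c2 at -0.74, Hist3h2a at -0.64, Hist1h1c at -0.51, Hist1h2bc at -0.06 and Hist1h2ac at -0.05. Hist1h1c, Hist1h2bc, Hist2h2be and Hist3h2a are among the 5 members listed here as also polyadenylated, and the other of the 5, Hist4h4, was at 2.16. The listing comes from background knowledge, and the ends of these mRNAs were not measured. A poly(A) signal, AATAAA, follows the coding sequence in the annotated transcripts of 14 members with enough reads. Of these, 7 were higher in clone 5, 5 had a ratio below 0 and the median was 1.10. Of the 38 members without it, 35 were higher, 1 had a ratio below 0 and the median was 1.47. For some of these, such as Hist1h3h and Hist1h4k, the annotation ends with the coding sequence, so AATAAA could not be found. A missing signal thus cannot be told apart from a short annotation. Of the 34 members with the stem-loop in their annotated transcript, 26 were higher, 4 had a ratio below 0 and the median was 1.32, and of the 18 without it these were 16, 2 and 1.60. These counts describe the same contrast and were chosen after earlier results of these data were known.

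Genes of DNA replication and cell division differed between the clones in the same direction. The summed level of 33 S phase genes was 1408 CPM in WT, 1730 in PRDX1MT, 1468 in clone 1 and 3391 in clone 5. That of 14 mitosis genes was 1528, 1210, 930 and 2537. In clone 5 against clone 1, 20 of 33 S phase genes (median log2 ratio 1.17) and 14 of 14 mitosis genes (1.497) passed the size rule, all higher in clone 5. The part of these lists in the histone result was not tested.

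The 11 replication-independent histone genes, which supply histones outside S phase, summed to 1224 CPM in WT, 1549 in PRDX1MT, 1743 in clone 1 and 1641 in clone 5. Their median log2 ratio between the clones was 0.57. By the size rule 4 of the 11 were higher in clone 5 and 1 was lower, against 7.63% and 10.7% of all genes. H3f3b, an H3.3 gene, was at 479, 757, 1026 and 713 CPM, so it was lower in clone 5 than in clone 1. H2afz, the H2A.Z gene, was at 120, 125, 93.0 and 195 CPM.

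RNAs other than histone mRNAs that lack a poly(A) tail, 7 genes led by Rn7sk, summed to 3785, 3690, 3246 and 3156 CPM. That sum was 0.04 lower on the log2 scale in clone 5 than in clone 1. Only 2 of the 7 genes had at least 100 reads over both clones, with log2 ratios of -0.45 and -0.03, so the sum stands for few genes.

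**Figure D2:**
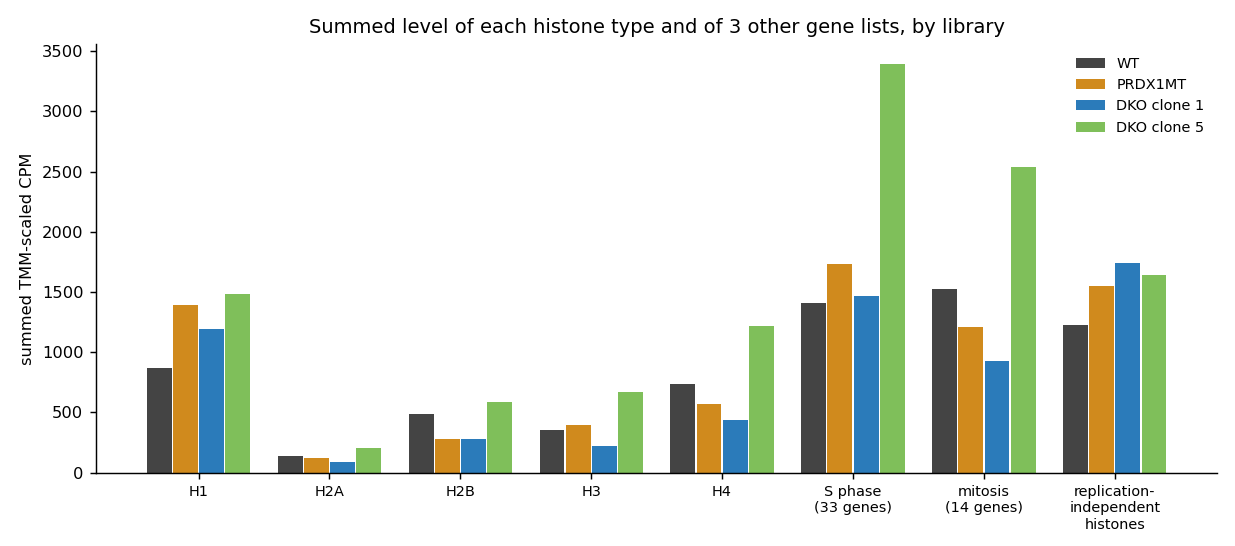
Summed TMM-scaled CPM (vertical axis, from 0) of each histone type and of 3 other gene lists, with 1 bar per library. Clone 5 has the highest bar for every histone type, for S phase and for mitosis, while the replication-independent histones are highest in clone 1 at 1743 CPM.

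No member passed the test of the DKO group against WT. In edgeR's quasi-likelihood test with Benjamini-Hochberg adjustment over 19446 genes, 0 of the 59 members tested passed an adjusted p of 0.05, while 0.468% of all genes did (0.0154% higher, 0.453% lower). At an unadjusted p under 0.05 there were 3 members and 5.08% of all genes. DESeq2 called 1 member, Hist1h1a. The members' median log2 ratio was 0.11, and 0.03 over all genes. The spread in this fit comes from the clones alone, with 1 residual degree of freedom, and is moderated across genes (prior degrees of freedom 6.54). The p-values set the difference between groups against that spread.

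For 41 of the 53 members the WT level lay between those of the clones. Both clones lay above WT for 7, which were Hist1h1c, Hist1h1t, Hist1h2ac, Hist3h2a, Hist1h2bc, Hist2h3c2 and Hist1h4i. Both lay below WT for 5, which were Hist1h1a, Hist1h2ah, Hist1h2bp, Hist1h4n and Hist4h4. Each clone against WT gave opposite counts. In clone 1, 4 of 52 members were higher and 19 lower by the size rule (8.40% and 7.56% of all genes), with a median log2 ratio of -0.79. In clone 5, 8 of 51 were higher and 1 lower (5.69% and 8.58% of all genes), with a median of 0.53. These comparisons share the WT library.

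Against PRDX1MT, edgeR called 0 of 59 members, against 0.206% of all genes (0.0103% higher, 0.195% lower). 1 member, Hist1h1a, had an unadjusted p under 0.05, as had 4.69% of all genes, and DESeq2 called 0. The median log2 ratio of the members was 0.53, and 0.04 over all genes.

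Among the H1 genes, Hist1h1a, which encodes the subtype H1.1, stood lower than WT in every edited line. It lies at chr13:23763666-23764406 on the plus strand and overlaps no other annotated gene. Its level was 40.5 CPM in WT (1665 reads), 13.8 in PRDX1MT (343 reads), 0.701 in clone 1 (25 reads) and 3.70 in clone 5 (102 reads). All 3 edited lines lay below WT, and both DKO clones lay below PRDX1MT. The DKO group, at 2.20 ± 2.12 CPM (SD, n = 2), was 20.1-fold lower than WT by pooled reads. In edgeR's quasi-likelihood test the log2 ratio was -4.21 (SE 0.85), with an unadjusted p of 0.00134 and a Benjamini-Hochberg adjusted p of 0.138, so it did not pass. DESeq2's adjusted p was 0.00020 for a log2 ratio of -4.19, and the edgeR fit with no filter on low counts also called the gene. Against PRDX1MT the log2 ratio was -2.66, with an edgeR adjusted p of 0.683. The 15 tested genes within 1 Mb, members left out, had a median log2 ratio of -0.08 in DKO against WT.

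Hist1h1c, which encodes H1.2 and can be polyadenylated, lies 23298 bases from Hist1h1a and went the other way. It stood at 314 CPM in WT, 802 in PRDX1MT, 803 in clone 1 and 565 in clone 5. Every edited line was higher than WT, with a log2 ratio of 1.36 (counting interval 1.32 to 1.39) in PRDX1MT. For DKO against WT the log2 ratio was 1.12 (SE 0.57), with an edgeR adjusted p of 1.00.

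The share of H1 reads from Hist1h1c was 36.1% in WT, 57.6% in PRDX1MT, 67.5% in clone 1 and 37.99% in clone 5. That of Hist1h1a was 4.66%, 0.989%, 0.0589% and 0.249%. Clone 5 thus had a Hist1h1c share close to that of WT, and the other edited lines had higher ones.

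The other H1 subtypes followed the clone contrast. Hist1h1e, the H1.4 gene, was at 275 CPM in WT, 294 in PRDX1MT, 205 in clone 1 and 454 in clone 5. Hist1h1d, the H1.3 gene, was at 129, 153, 113 and 281, and Hist1h1b, the H1.5 gene, at 110, 130, 66.7 and 182. For all 3, clone 1 was lowest and clone 5 highest. Hist1h1t, the testis subtype, was at most 1.60 CPM.

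**Figure D3:**
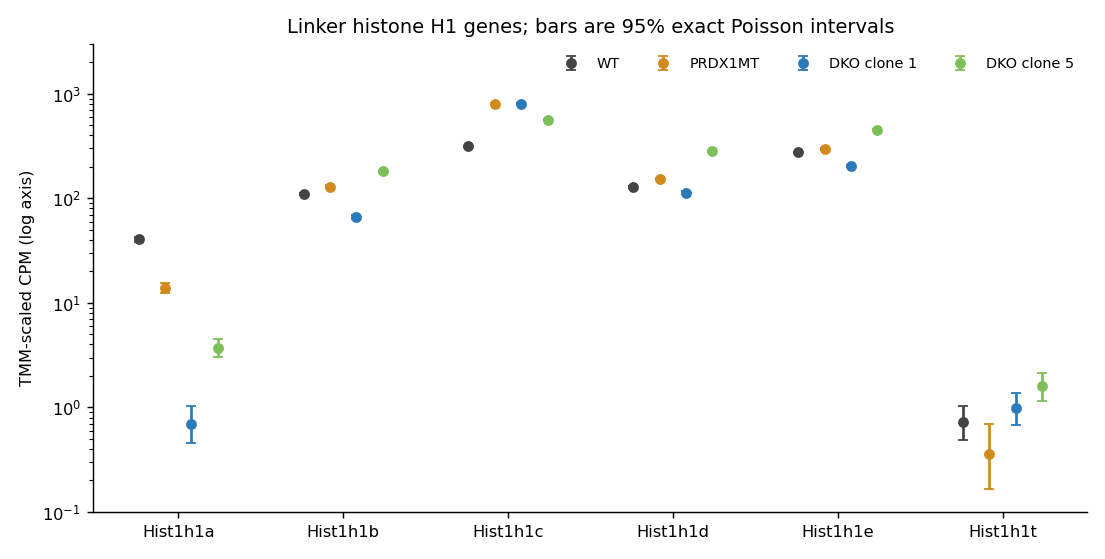
TMM-scaled CPM (vertical log axis) of the 6 H1 genes in each library, with 95% exact Poisson intervals as bars. Hist1h1a is at 40.5 CPM in WT and 0.701 in clone 1, whereas Hist1h1c is lowest in WT at 314.

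In PRDX1MT against WT the log2 ratio was below 0 for 35 of 50 members and above 0 for 15, among them 7 of 10 H3 genes and 4 of 5 H1 genes. By the size rule 2 of the 50 were higher, 10 were lower and 38 did not pass, against 7.25% and 7.57% of all genes, and the median log2 ratio was -0.40 against -0.04 over all genes. The higher ones were Hist1h1c and Hist2h3c2. Of the 10 lower ones, 6 were H2B genes, with Hist4h4, Hist1h4n, Hist1h1a and Hist1h2ah. Total-count scaling moved the median of all genes in PRDX1MT to -0.285, so the ratios below are best read relative to each other.

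H2B stood lowest among the histone types in PRDX1MT. All 12 H2B genes with enough reads had a log2 ratio below 0, with a median of -1.01, and this sign was the same for the summed H2B level under every scaling tried (-1.10 to -0.815). The median was -0.39 for H2A, -0.36 for H4, 0.18 for H3 and 0.23 for H1. H2B genes made up 18.97% of member reads in WT, 10.0% in PRDX1MT, 12.6% in clone 1 and 14.1% in clone 5. The sum of H3 was 0.15 above WT on the log2 scale with TMM scaling and -0.12 with total counts, so its direction depended on the scaling.

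The abundant H2B gene Hist1h2bg was at 70.8 CPM in WT, 31.4 in PRDX1MT, 33.9 in clone 1 and 79.2 in clone 5. Hist1h2bl was at 48.1, 27.2, 25.9 and 62.9, and Hist1h2bb at 52.1, 31.3, 23.8 and 66.4. For these 3 genes PRDX1MT and clone 1 lay together below WT, and clone 5 above it. Hist1h2bk was at 35.8, 15.0, 10.8 and 41.1, and Hist1h2bp, the H2B gene with the lowest ratio in PRDX1MT (-1.46), at 5.30, 1.89, 3.22 and 4.72. Hist1h2bc, listed as also polyadenylated, kept to a narrower range of 61.9 to 80.2 CPM. Hist2h2be, also on that list and with little read support (18 to 110 reads), was at 1.39, 0.724, 3.08 and 1.34.

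Ratios were mostly lower for H2B genes than for their H2A neighbours. Of the members, 12 H2A and H2B genes each form head-to-head pairs 175 to 305 bases apart, with their starts facing each other. In 9 of these pairs both genes had at least 100 reads, and in PRDX1MT against WT the H2B gene had the lower log2 ratio in 9 of 9. It did in 6 of 9 for clone 1 and in 8 of 9 for clone 5, each against the same WT library. In the pair Hist1h2ae and Hist1h2bg the PRDX1MT ratios were -0.24 and -1.17. In the pair Hist1h2ah and Hist1h2bk, whose shared stretch is printed above, they were -1.14 and -1.26. The part of the genes that overlap the H2A genes in these ratios was not tested.

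**Figure D4:**
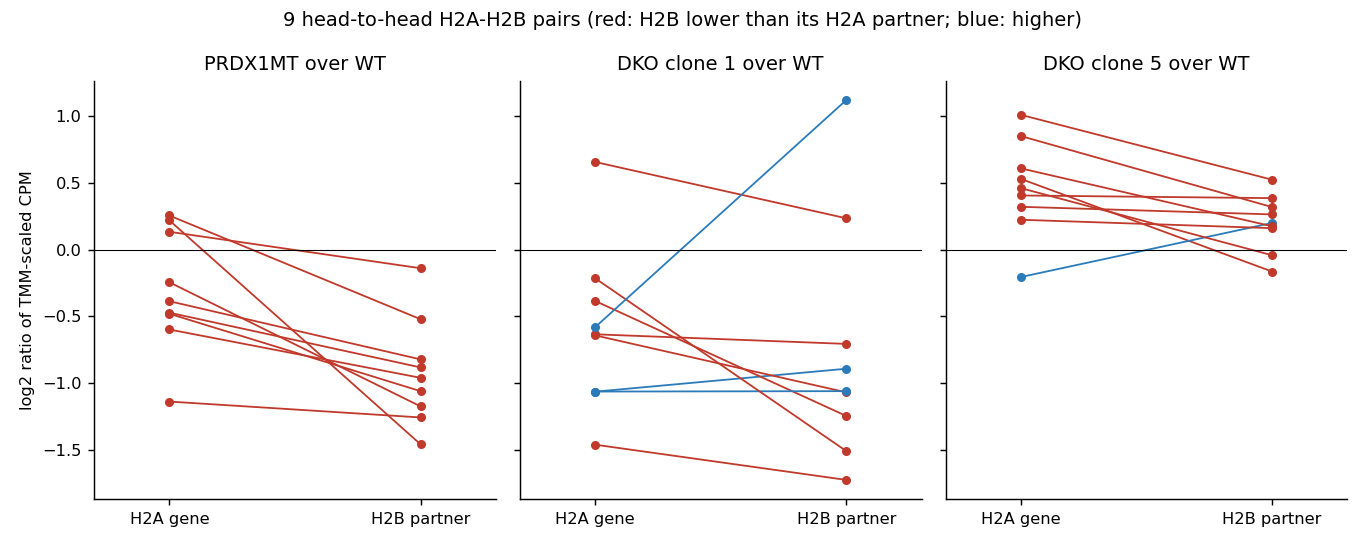
Log2 ratio over WT of each H2A gene and its head-to-head H2B partner in 9 pairs, in PRDX1MT, clone 1 and clone 5, with a line joining the genes of a pair (red where the H2B gene is lower). All 9 lines slope down in PRDX1MT, against 6 in clone 1 and 8 in clone 5.

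Hist1h2ak, the H2A gene with the most reads per kilobase, was at 40.6 CPM in WT, 48.4 in PRDX1MT, 26.0 in clone 1 and 81.7 in clone 5. Hist1h2af was at 15.5, 13.9, 9.06 and 22.2, Hist1h2ab at 15.8, 12.1, 4.91 and 19.5, and Hist1h2ae at 18.1, 15.2, 8.61 and 21.1. In these 4 genes clone 1 was lowest and clone 5 highest. Hist1h2ah was at 8.21, 3.70, 2.94 and 7.12, with all edited lines below WT. Hist1h2ac was at 8.53, 9.37, 13.5 and 13.04, and Hist3h2a, listed as also polyadenylated, at 3.62, 2.53, 6.70 and 4.29. These last genes were higher in clone 1 than in WT, unlike most H2A genes. Hist2h2ac was at 6.66, 4.78, 4.43 and 9.19.

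H3 genes followed the clone contrast with 1 exception. Hist1h3c was at 61.5 CPM in WT, 70.5 in PRDX1MT, 39.8 in clone 1 and 152 in clone 5. Hist1h3e was at 83.9, 100.5, 55.8 and 136, Hist1h3f at 79.6, 89.1, 47.3 and 149, and Hist1h3i at 32.6, 53.8, 23.4 and 71.3. In each, clone 1 lay lowest and clone 5 highest. Hist1h3h was at 18.0, 18.7, 5.07 and 22.8, and Hist1h3b, the H3 gene with the lowest PRDX1MT ratio, at 16.4, 8.48, 6.84 and 24.6.

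The exception was Hist2h3c2, at chr3:96238108-96239127 on the minus strand, whose level was 1.29 CPM in WT (53 reads), 4.02 in PRDX1MT (100 reads), 8.19 in clone 1 (292 reads) and 4.87 in clone 5 (134 reads). All edited lines lay above WT. The log2 ratio for DKO against WT was 2.34 (SE 0.77), with an unadjusted p of 0.0168 and an adjusted p of 0.616 in edgeR's quasi-likelihood test. It shares 63.5% of its 50-base windows with Hist2h3c1, which was at 0 reads in all libraries, so its level is uncertain.

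Among H4 genes the most abundant per kilobase of coding sequence was Hist1h4d, at 181 CPM in WT, 171 in PRDX1MT, 101 in clone 1 and 296 in clone 5. Hist1h4h was at 92.9, 70.2, 59.3 and 152, Hist1h4f at 75.6, 74.8, 39.9 and 141, Hist1h4k at 66.5, 48.1, 29.8 and 119, and Hist2h4 at 59.3, 36.5, 33.3 and 94.7. These 5 genes were lowest in clone 1 and highest in clone 5.

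Hist4h4, the only member of its cluster, was at 50.2 CPM in WT (2067 reads), 7.52 in PRDX1MT (187 reads), 8.47 in clone 1 (302 reads) and 38.2 in clone 5 (1051 reads). It was 6.68-fold lower in PRDX1MT than in WT and 5.93-fold lower in clone 1, but near WT in clone 5 (log2 ratio -0.40). The DKO mean was 23.3 ± 21.002 CPM (SD, n = 2), and the edgeR adjusted p against WT was 1.00. The 14 tested genes within 1 Mb had a median log2 ratio of -0.14 in PRDX1MT and 0.42 in DKO. Hist1h4n was at 32.8, 5.91, 8.86 and 20.96 CPM, the same order of libraries as for Hist4h4, with PRDX1MT lowest and WT highest. Because 83.2% of its windows are shared with Hist1h4m (0.365 to 0.799 CPM), its level is uncertain.

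Hist1h4i was the H4 gene with both clones above WT, at 32.7 CPM in WT, 42.5 in PRDX1MT, 71.4 in clone 1 and 88.2 in clone 5. The log2 ratio for DKO was 1.29 (SE 0.47), with an unadjusted p of 0.0277 and an adjusted p of 0.796 in edgeR's quasi-likelihood test.

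**Figure D5:**
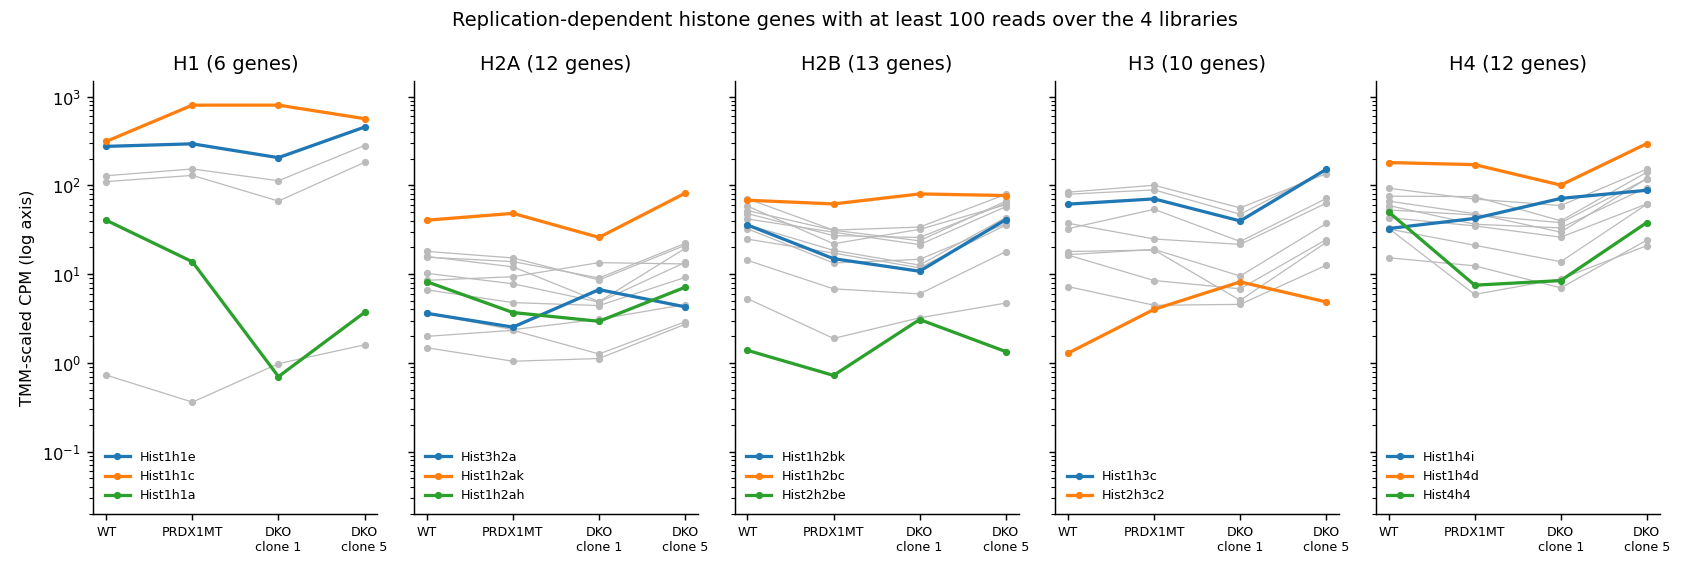
TMM-scaled CPM (vertical log axis) in the 4 libraries for the 53 members with at least 100 reads, in 1 panel per histone type; lines join values of 1 gene and imply no order. Most grey lines dip at clone 1 and peak at clone 5, while Hist1h1a, Hist1h1c, Hist2h3c2, Hist4h4 and Hist1h4i take other courses.

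Between the clones, the genes that act on histone mRNA and histone protein had lower median log2 ratios than the members, which were at 1.43. In DKO against WT the members' median was 0.11. Of 25 genes of histone mRNA transcription, processing and decay, edgeR called 0 in DKO against WT (median log2 ratio -0.03), and 0 also at an unadjusted p. Between the clones 1 of 24 was higher in clone 5 (median 0.21). Slbp, which binds the stem-loop, was at 26.8, 23.2, 23.9 and 39.6 CPM, and Npat, the coactivator of histone genes, at 44.8, 49.8, 39.6 and 33.4. Upf1, which takes part in histone mRNA decay, was at 116, 114, 138 and 205. Of 16 histone chaperones, edgeR called 0 in DKO against WT (median 0.13). By the size rule 5 of the 16 were higher in clone 5 than in clone 1 (median 0.61), against 7.63% of all genes. Rbbp4, a subunit of the CAF-1 chaperone, was at 205, 116, 155 and 217 CPM.

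Of the Cdk inhibitors, Cdkn2a and Cdkn2b were at 10.55 and 11.7 CPM in WT and at 0 reads in all 3 edited lines, and these are the 2 of 6 that edgeR called in DKO against WT (adjusted p of 0.0278 and 0.0254). Cdkn1a, the p21 gene, was at 126, 305, 384 and 275 CPM. The part of these genes in the histone levels was not tested.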

How the data were processed

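RNA libraries were made from total RNA with a stranded kit after ribosomal RNA removal, per the labels' protocols, and aligned with STAR 2.6.1d to mm10, per the submitters' processing notes. How reads were counted (program, annotation, strand) is not given in the sources used here. Deposited by the authors were raw counts of reads per gene as whole numbers, without normalization, for 1 WT, 1 PRDX1MT and 2 DKO libraries. P-values set a difference against no more than the spread between the 2 DKO clones, each seen in 1 library. The labels do not tie libraries to separate cultures, so clonal, culture and technical parts of that spread cannot be told apart.

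Names, biotypes and coordinates came from GENCODE M21. Counts were fitted in R 4.3.3 with edgeR 4.0.16 (quasi-likelihood test, TMM, filterByExpr by group, all 4 libraries, Benjamini-Hochberg over 19446 genes, prior degrees of freedom 6.54); 59 of the 67 members passed the filter. DESeq2 1.42.0 was an alternative, as were other scalings, filters, sample sets, read minimums, folds and prior counts, and, chosen after seeing the data, removal of Gm26917. Single libraries were compared by the size rule, with conditional exact binomial intervals; levels have exact Poisson intervals. Reads carry no molecular identifiers and PCR copies are not separate molecules, so intervals and floors cover counting error only. The edgeR fit was run on simulated counts with known changes, as a check of the size and sign of its ratios, and the intervals were checked for coverage. How many changed genes the test finds is not reported here.

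The members, lists and tests were chosen with earlier results of these data known. Named members are, for each type, the 3 with the most reads per kilobase of exon, the highest and lowest ratio in DKO and in PRDX1MT, members of Hist2 to Hist4 with at least 100 reads, testis members and those listed as also polyadenylated. The ranking per kilobase of coding length and the other members and genes named outside these, such as Slbp and Npat, were added after values were seen.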

Additional observations from a re-analysis of the deposited data

How the results depend on the processing

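The count of members called in DKO against WT was 1 in place of 0 with DESeq2 and with no filter on low counts. Against PRDX1MT it was 1 with no filter. The member was Hist1h1a, lower in DKO, each time. Fits that left out 1 DKO clone joined WT and PRDX1MT as 1 group, so they tested neither comparison by itself. With a 1.5-fold threshold the size rule passed 22 members in PRDX1MT, 44 in clone 1 and 26 in clone 5 against WT, in place of 12, 23 and 9. On the log2 scale, the summed level in PRDX1MT against WT turned from 0.095 to -0.180 with total counts, -0.213 without Hist1h1c, -0.187 without the also polyadenylated members and -0.472 as a median over members. In DKO against WT it was 0.304, and ranged from -0.222 without DKO replicate 5 to 0.689 without DKO replicate 1. In clone 5 against clone 1 it was 0.911, and 0.897 with median-of-ratios factors, 0.866 with total counts, 0.890 without Gm26917, 1.35 without Hist1h1c, 1.405 without the also polyadenylated members and 1.413 as a median. The count over all genes in DKO against WT was 91, and 262 with DESeq2, 535 with no filter and 0 with at least 1 CPM in 2 libraries. Against PRDX1MT it was 40, and 215, 404 and 0. With WT and PRDX1MT joined, which is the same fit for both comparisons, it was 37. Against PRDX1MT it was also 13 with median-of-ratios factors, 7 with total counts and 11 with only the groups compared. With WT and PRDX1MT joined it was 21 without DKO replicate 1 and 92 without DKO replicate 5. The cause of these differences was not tested. For single members in these fits, no ratio changed sign with a call, and the only member that newly passed the threshold was Hist1h1a. Depth limits the members under 100 reads. No paired analysis was possible because the labels give no pairing of libraries, and WT and PRDX1MT have 1 library each.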
